A study of Mus musculus with 12 samples.

Results

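The genes of glycolysis and gluconeogenesis were followed in the ears of wild-type mice as the rows of the deposited expression table whose pathway annotation holds the KEGG map of these pathways and not the map of branched-chain amino acid breakdown. The rule found 545 of the 56691 rows of the table, or 0.961%, and left out 2 rows that carry both maps, Dld and Aldh9a1. Glycolysis splits glucose into pyruvate in the cytosol and yields ATP without oxygen. Gluconeogenesis runs the same reversible steps backwards and replaces the irreversible ones with its own enzymes. Most steps have several isozymes that differ between tissues, with muscle, liver, nerve and white blood cell forms, and in skin the epidermis is known for releasing much of its glucose carbon as lactate. The same pathway map also holds the pyruvate dehydrogenase complex, the acetyl-CoA synthetases, and the alcohol and aldehyde dehydrogenases.

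RNA-seq was done on 12 ear libraries of the WT genotype, 4 in each of 3 groups. Per the labels, IsoL mice were given Isoliensinine, an alkaloid of the lotus plant, Model mice were given MC903 (calcipotriol, related to vitamin D and used to provoke skin inflammation of the atopic type), and Blank mice were given nothing. The strain, the age, the doses, the days of sampling and whether the IsoL ears also received MC903 are not given in the sources used here, and an untreated Blank ear leaves MC903 and its application not told apart. The design states that replicates are biological, but the labels tie no library to an animal of its own, so p-values here cover differences among libraries, which may be technical.

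The libraries held 13884927 to 18771831 counted reads, and the glycolysis and gluconeogenesis rows took 0.498% to 0.581% of them in IsoL, 0.563% to 0.576% in Model and 0.458% to 0.465% in Blank. Between libraries of a group the biological coefficient of variation came to 9.20% in IsoL, 4.70% in Model and 3.57% in Blank, so IsoL ears varied most among themselves. All markers fixed for keratinocytes, fibroblasts, sebaceous gland, cartilage, fat and skeletal muscle were detected in every group. In whole tissue, fewer cells of a type and less RNA per cell cannot be told apart. Summed markers, in TMM-scaled CPM, were 430.5 to 568 in IsoL, 3313 to 3637 in Model and 43.0 to 87.6 in Blank for 10 neutrophil genes, with Ly6g and Ngp at 0 in Blank. For 10 monocyte and macrophage genes the sums were 1707 to 1982 in IsoL, 3381 to 3765 in Model and 412 to 441 in Blank. For 16 skeletal muscle genes they were 3190.2 to 4888 in IsoL, 3719.7 to 4262 in Model and 6452 to 7116 in Blank, and for 8 keratinocyte genes 31894 to 37673 in IsoL, 14696 to 17692 in Model and 15532 to 16565 in Blank. The keratinocyte sum hides opposite changes in Model against Blank, where 4 of the 8 were higher, Krt6a (log2 5.39) and Krt16 (5.40) among them, and 4 were lower, Lor (-1.61), Krt5 (-1.43) and Krt10 (-1.30) among them.

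Most of the 545 rows are copies that were hardly read. Of these rows, 455 have a predicted-gene name that begins with Gm, 374 are annotated as glyceraldehyde-3-phosphate dehydrogenase, and 301 had no count in any of the 12 libraries. Another 108 rows had 1 to 10 counts in all libraries together. A test was made for the 61 rows with an FPKM of at least 1 in at least 4 libraries, and the 484 rows left out held 0.396% of the counts of all the rows. Of 60 rows sorted by the role of their enzyme, 47 were tested. Among the 13 that were not tested, Pklr, the pyruvate kinase of liver and red cells, Pgk2 and Ldhal6b, both known from testis, and Pdha2 had no count in any library. G6pc, the glucose-6-phosphatase of liver, had 7 counts over all 12 libraries.

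Copies bear on what the counts of some members mean. Gapdh (ENSMUSG00000057666, chromosome 6, 125138678 to 125143430, build not given), the glycolytic enzyme often used as a loading control, had only 8.82, 8.86, 7.86 and 7.72 scaled FPKM in IsoL ears, 9.86, 9.25, 9.50 and 8.56 in Model ears, and 5.19, 4.75, 4.75 and 4.83 in Blank ears. Scaled FPKM is the count divided by exon length and by the TMM-scaled library total, in the units of FPKM. It can be compared between libraries, while levels of different genes also depend on the exon length taken for each. Gm13394 (chromosome 2, 28823622 to 28824621), a predicted gene, averaged 246 ± 12.05 in IsoL, 242 ± 3.68 in Model and 143 ± 1.91 in Blank ears (mean ± SD, n = 4 each, as for all such values here). Of the counts summed for this enzyme, Gm13394 held 74.7% to 79.4% and Gapdh 10.1% to 13.0%; the sum takes the annotated rows with Gapdhs and without Zfp738 and Peli2, which carry this annotation beside another. Of the 50-base words of the GENCODE M21 transcripts, 25.1% of those of Gapdh and 94.7% of those of Gm13394 also occur in another gene. The copy runs along 999 bases of the Gapdh coding sequence and differs at 1 of them. The stretch with that difference is shown because it is all that separates reads of the 2 rows over those 999 bases. It covers coding bases 375 to 434 of Gapdh on chromosome 6, counted from the start codon, and the matching bases of Gm13394 on chromosome 2, from GENCODE M21 (GRCm38), with the base that differs in capitals.
Gapdh: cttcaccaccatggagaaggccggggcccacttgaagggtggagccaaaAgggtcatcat
Gm13394: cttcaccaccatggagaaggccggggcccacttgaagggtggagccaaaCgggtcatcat

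Eno1, the enolase of most tissues, has copies of the same kind in Eno1b and in the predicted gene Gm4735, with 85.2% and 96.0% of their words found elsewhere, against 26.0% for Eno1. Gm4735 matches the 1302 coding bases of Eno1 with 5 differences. The stretch below holds 1 of them, at coding bases 677 to 736 of Eno1 on chromosome 4 and of Gm4735 on chromosome 2.
Eno1: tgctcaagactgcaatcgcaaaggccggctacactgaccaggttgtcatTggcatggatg
Gm4735: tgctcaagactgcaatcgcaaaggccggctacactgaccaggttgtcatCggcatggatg
How the authors' counting divided reads between such rows is not stated in the labels or the file, so the rows of Gapdh, Gm13394, Gm12033, Gm5559, Eno1, Eno1b and Gm4735 are uncertain one by one. They are also given as sums over all rows of the enzyme. Pgk1 (53.9%) and Pgam1 (36.2%) share words with other genes too, each most with a copy. Pkm (25.8%) shares most with Gm49759, a tested gene that overlaps it on the same strand. Pgk1 held 99.3% to 99.9% of the counts of its enzyme and Pkm 98.9% to 99.4%. The pyruvate kinase rows do not include Gm49759, so that share does not bear on reads of the overlap. Words of Hk2, Hk3, Eno3 and Pgam2 were found in no other gene.

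In Model ears against Blank ears, 35 of the 61 tested rows were higher and 19 were lower at an adjusted p under 0.05 in edgeR's quasi-likelihood test, where 35.3% of all 15403 tested genes were higher and 34.9% lower (70.1% called in all). With a change of at least 1.5-fold as well, 26 were higher and 12 lower, where 20.3% and 16.0% of all genes were (36.3% called in all). The median log2 change was 0.36 over the 61 rows and -0.01 over all tested genes. Against Model, IsoL ears had 17 rows higher and 13 lower, where 24.1% of all tested genes were higher and 25.2% lower (49.3% called in all), and 9 higher and 5 lower by 1.5-fold, where 6.88% and 11.0% were (17.8% in all). That split depended on the scaling, with 12 higher and 17 lower by total counts and 20 higher and 8 lower by upper-quartile scaling. Against Blank, IsoL ears had 33 rows higher and 15 lower, where 36.5% and 34.0% of all genes were (70.5% called in all), and 24 higher and 4 lower by 1.5-fold, where 19.3% and 15.4% were (34.7% in all). The comparisons share libraries (Blank serves in the first and the third comparison, Model in the first and second, IsoL in the second and the third), so their values stand side by side and no overlap between them is read. Log2 changes in the text stand with ± their SE, and adjusted p-values are those of the edgeR test over all tested genes.

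**Figure D1:**
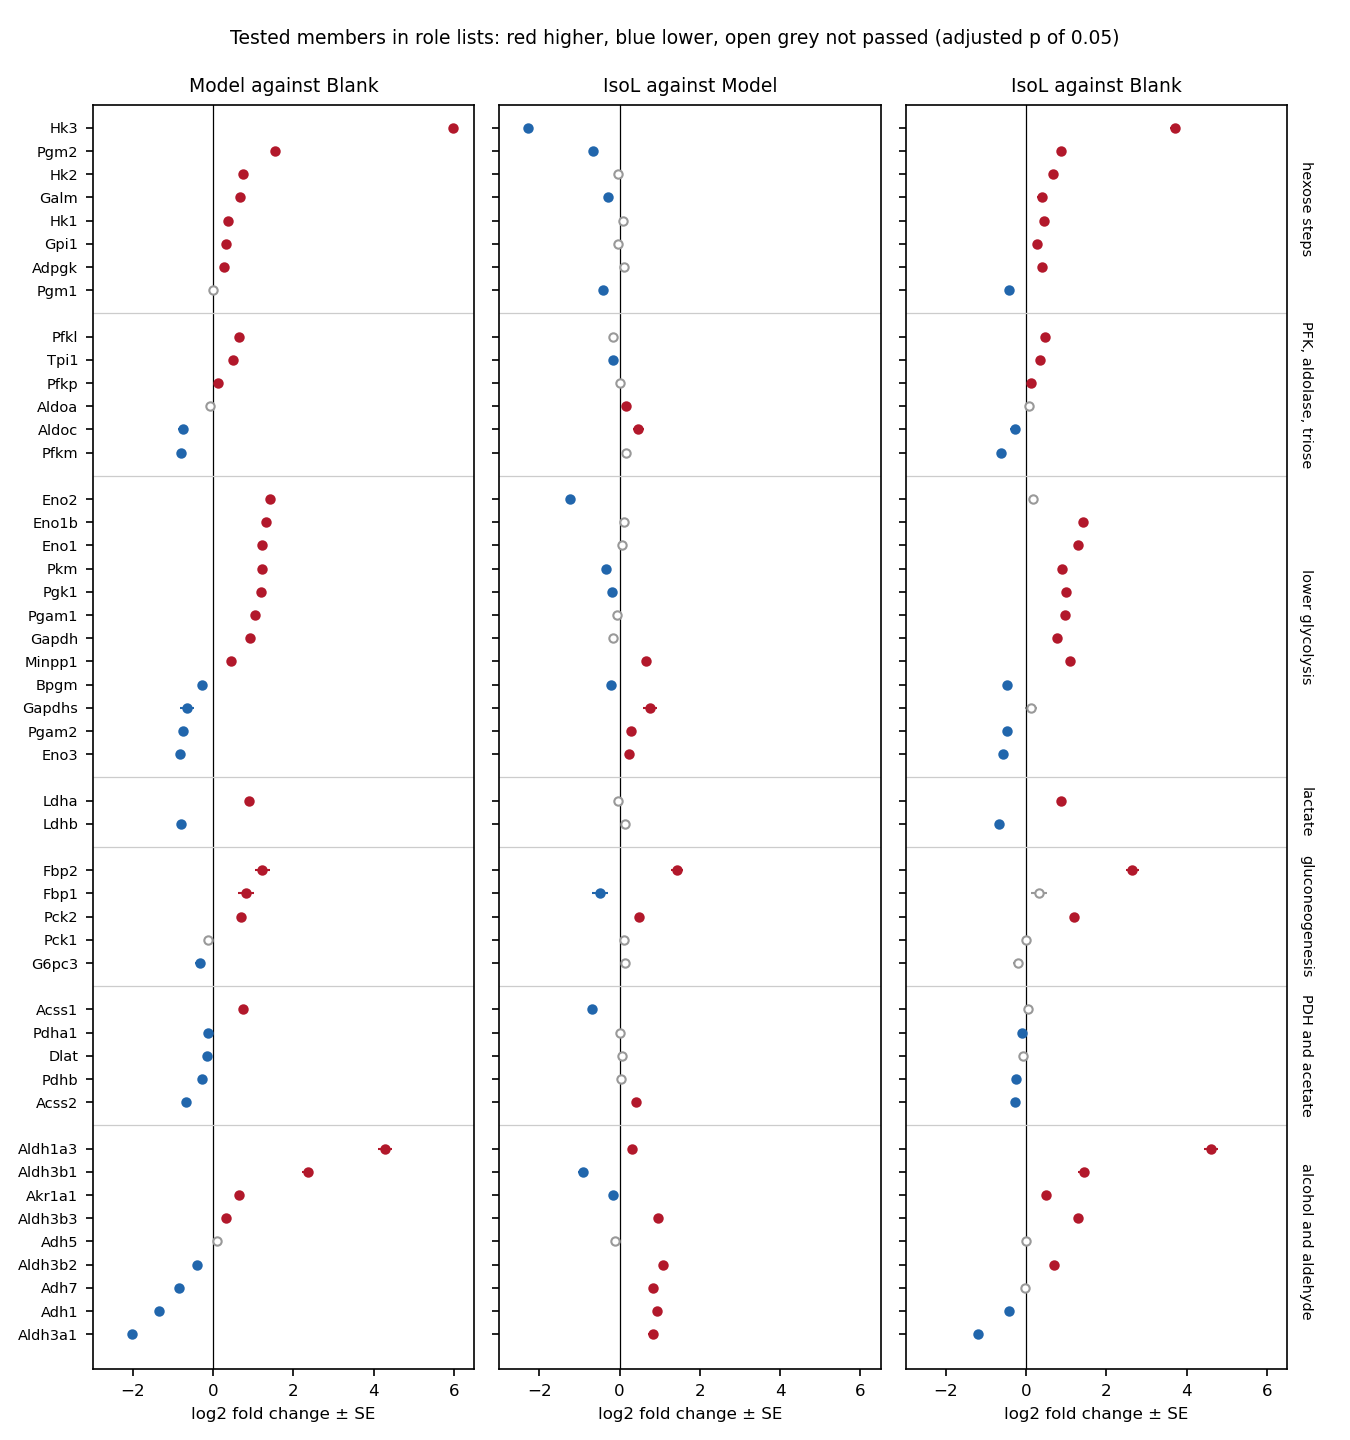
Log2 fold change with its SE (edgeR, 4 libraries per group) of the 47 tested members with an assigned role, in Model against Blank, IsoL against Model and IsoL against Blank, 1 row per gene, ordered within each role by the change in Model against Blank. Filled red points were called higher, filled blue points lower, and open grey points did not pass at an adjusted p of 0.05. Hk3 stands farthest to the right in Model against Blank (5.99), Aldh1a3 in IsoL against Blank (4.60).

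Among the 8 tested genes that bring hexoses into glycolysis, 7 were higher in Model than in Blank and none lower. Against Model, IsoL had 4 lower and none higher, and against Blank it had 7 higher and 1 lower. Of all tested genes, 35.3% were higher and 34.9% lower in Model against Blank. The shares were 24.1% and 25.2% in IsoL against Model, and 36.5% and 34.0% in IsoL against Blank. Hk3 (ENSMUSG00000025877, chromosome 13, 55153798 to 55169198, build not given) is the hexokinase known from white blood cells. It had 5.67, 4.64, 5.01 and 5.18 scaled FPKM in IsoL ears, 27.3, 24.3, 24.0 and 24.7 in Model ears, and 0.476, 0.352, 0.350 and 0.391 in Blank ears. No group overlapped another: Model ears were 63.4-fold above Blank ears (log2 5.99 ± 0.10, adjusted p = 2e-22), and IsoL ears were 4.89-fold below Model ears (adjusted p = 3.3e-17) and still 13.0-fold above Blank ears. All Blank ears lay below 1 scaled FPKM, with 22 to 32 counts each. Hk3 thus passed the filter through the Model and IsoL ears, so its separation from Blank is not independent of the filter. The neutrophil and the macrophage marker sums given above also were highest in Model, next in IsoL and lowest in Blank; their part in the Hk3 levels was not tested.

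Hk2, the insulin-responsive hexokinase of muscle, fat and proliferating cells (chromosome 6, 82702006 to 82751435), had 17.0, 17.0, 18.6 and 17.9 scaled FPKM in IsoL ears, 17.9, 18.6, 19.5 and 17.2 in Model ears, and 11.5, 10.9, 10.4 and 11.2 in Blank ears. IsoL and Model ears overlapped and both stood above every Blank ear: the log2 change was 0.73 ± 0.05 in Model against Blank and 0.68 ± 0.05 in IsoL against Blank, while IsoL against Model did not pass (-0.05 ± 0.05, adjusted p = 0.409). Hk1, the housekeeping hexokinase, had 10.8, 9.57, 9.84 and 9.79 scaled FPKM in IsoL ears, 9.63, 9.35, 9.48 and 9.22 in Model ears, and 7.85, 7.36, 6.66 and 7.46 in Blank ears. It was 1.28-fold higher in Model than in Blank and 1.37-fold higher in IsoL than in Blank. Its IsoL and Model libraries overlapped (adjusted p = 0.19).

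Pgm2, a phosphoglucomutase that also handles pentose phosphates, had 9.25, 9.79, 9.63 and 10.3 scaled FPKM in IsoL ears, 16.6, 14.8, 14.9 and 15.5 in Model ears, and 4.88, 5.69, 5.11 and 5.68 in Blank ears. Each Model ear was above each IsoL ear, and each IsoL ear above each Blank ear. The log2 change was 1.53 ± 0.07 in Model against Blank, and IsoL ears fell by 0.67 ± 0.07 against Model (adjusted p = 2.3e-08). Pgm1, the main phosphoglucomutase, which links glucose-6-phosphate to glycogen, behaved otherwise, with 8.47, 9.69, 9.91 and 8.78 scaled FPKM in IsoL ears, 11.9, 12.4, 12.5 and 12.5 in Model ears, and 13.4, 12.1, 11.7 and 12.2 in Blank ears. Model and Blank ears overlapped (adjusted p = 0.931), and IsoL ears lay below both, lower by 0.42 than Model and by 0.43 than Blank on the log2 scale (adjusted p = 1.5e-05 and 5.8e-06).

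Gpi1, the isomerase that turns glucose-6-phosphate into fructose-6-phosphate and the gene of this role with the highest level, had 27.9, 25.3, 29.9 and 23.9 scaled FPKM in IsoL ears, 27.0, 29.4, 27.3 and 27.0 in Model ears, and 22.2, 22.1, 22.2 and 22.3 in Blank ears. All Blank ears lay lowest. It was higher in Model than in Blank by 0.32 ± 0.06 and in IsoL than in Blank by 0.27 ± 0.06 on the log2 scale; by total counts the second change was 0.08 and not called. Adpgk, which phosphorylates glucose with ADP, was 1.20-fold higher in Model than in Blank. Galm, which interconverts the ring forms of hexoses, was 1.597-fold higher in Model than in Blank (adjusted p = 1.9e-05). Against Model, Galm was lower in IsoL by 0.28 (adjusted p = 0.043), a call that was lost without IsoL replicate 1, 2 or 3 or Model replicate 2, 3 or 4 (log2 change -0.21 to -0.30, adjusted p 0.053 to 0.169).

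At the phosphofructokinase, aldolase and triose steps the isozymes parted. Of 6 tested genes, 3 were higher and 2 lower in Model than in Blank, 2 higher and 1 lower in IsoL than in Model, and 3 higher and 2 lower in IsoL than in Blank. In that order, the shares of all tested genes were 35.3% and 34.9%, 24.1% and 25.2%, and 36.5% and 34.0%. Phosphofructokinase makes the committed step of glycolysis and has liver, muscle and platelet forms. Pfkl, the liver form, had 6.56, 6.71, 7.38 and 5.56 scaled FPKM in IsoL ears, 6.66, 7.87, 7.64 and 7.40 in Model ears, and 4.45, 4.96, 4.58 and 4.86 in Blank ears. All Model and all IsoL ears were above all Blank ears, with log2 changes of 0.65 ± 0.08 (adjusted p = 9.8e-08) and 0.47 ± 0.08.

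Pfkm, the muscle form, had 28.3, 40.3, 43.3 and 32.9 scaled FPKM in IsoL ears, 34.7, 29.9, 34.5 and 30.6 in Model ears, and 58.8, 57.5, 53.9 and 54.4 in Blank ears. Here all Blank ears were the higher ones: Model ears fell by 0.79 ± 0.09 against Blank (adjusted p = 6.9e-08) and IsoL ears fell by 0.63 ± 0.09. The skeletal muscle marker sums of IsoL replicates 1 to 4 were 3190.2, 4888, 4879.6 and 3857 CPM. Replicates 2 and 3, with the highest Pfkm in IsoL, also had the highest sums. The part of muscle RNA in the Pfkm levels was not tested. Pfkp, the platelet form, had 10.01, 9.67, 9.31 and 9.45 scaled FPKM in IsoL ears, 9.19, 9.71, 9.56 and 9.65 in Model ears, and 9.17, 8.76, 8.47 and 8.93 in Blank ears. The groups lay close together, and its calls of 0.11 ± 0.04 in Model against Blank and 0.12 ± 0.04 in IsoL against Blank turned to -0.03 and -0.07 with total counts, and the first was also lost without Model replicate 2, 3 or 4 or Blank replicate 2 or 3 (log2 change 0.09 to 0.11, adjusted p 0.0629 to 0.112) and the second without IsoL replicate 1 or Blank replicate 3 (log2 change 0.10, adjusted p 0.051 to 0.0713).

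Aldoa, the aldolase of muscle and most tissues (chromosome 7, 126394406 to 126399923), was the most expressed of these genes, with 227, 224, 269 and 199 scaled FPKM in IsoL ears, 207, 199, 215 and 202 in Model ears, and 220.3, 214, 219 and 221 in Blank ears. The 3 groups overlapped. Model against Blank did not pass (-0.09 ± 0.06, adjusted p = 0.24), though by total counts it was called lower at -0.22. IsoL against Model passed at 0.16 ± 0.06 (adjusted p = 0.0436), and that call was lost without IsoL replicate 3 or Model replicate 1, 2 or 4 (log2 change 0.07 to 0.16, adjusted p 0.0757 to 0.212).

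Aldoc, the aldolase of brain, had 2.61, 2.58, 2.72 and 2.44 scaled FPKM in IsoL ears, 1.46, 2.32, 1.92 and 1.73 in Model ears, and 3.57, 2.82, 2.96 and 3.16 in Blank ears. The groups did not overlap, with Blank ears highest, IsoL ears between and Model ears lowest. It fell by 0.74 ± 0.13 in Model against Blank and rose by 0.47 ± 0.13 in IsoL against Model (adjusted p = 0.00453). Tpi1, which interconverts the triose phosphates, averaged 76.8 ± 6.68 in IsoL, 85.9 ± 2.53 in Model and 60.5 ± 1.18 in Blank ears. It was 1.42-fold higher in Model than in Blank (adjusted p = 1.8e-08). It was lower in IsoL than in Model by 0.16 (adjusted p = 0.0148), and that was lost without IsoL replicate 2 (log2 change -0.12, adjusted p 0.0613).

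The lower steps, which take glyceraldehyde phosphate to pyruvate and repay the ATP, include Eno1b, a row that is uncertain as a copy of Eno1. In Model against Blank 8 of 12 were higher and 4 lower. In IsoL against Model 4 were higher and 4 lower, and in IsoL against Blank 7 were higher and 3 lower. Over all tested genes the shares were 35.3% and 34.9%, 24.1% and 25.2%, and 36.5% and 34.0% in that order. The median log2 change of the 12 was 0.98 in Model against Blank and 0.83 in IsoL against Blank, where that of all tested genes was -0.01 and 0.02.

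Pgk1, phosphoglycerate kinase (ENSMUSG00000062070, chromosome X, 105230706 to 105247305), had 106, 105, 105 and 106 scaled FPKM in IsoL ears, 123, 115, 121 and 126 in Model ears, and 53.9, 54.0, 53.5 and 51.4 in Blank ears. The 3 groups were apart from each other. Model ears were 2.28-fold above Blank ears (log2 1.19 ± 0.04, adjusted p = 1.3e-16), and IsoL ears fell by 0.20 ± 0.04 against Model (adjusted p = 0.00033) and stayed 1.98-fold above Blank.

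Pkm, pyruvate kinase of all tissues but liver and red cells (chromosome 9, 59563651 to 59586658), had 166, 152, 164 and 151 scaled FPKM in IsoL ears, 196, 202, 204 and 198 in Model ears, and 87.0, 85.0, 86.3 and 84.2 in Blank ears. The groups again did not overlap, with Model 2.34-fold and IsoL 1.85-fold above Blank, and IsoL lower than Model by 0.34 on the log2 scale (adjusted p = 1.4e-06). The table gives 1 count per gene, so the M1 and M2 splice forms of Pkm were not separated.

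Eno1 had 55.7, 47.2, 52.8 and 45.5 scaled FPKM in IsoL ears, 48.3, 49.3, 48.9 and 47.5 in Model ears, and 20.6, 20.6, 21.4 and 20.2 in Blank ears (chromosome 4, 150321178 to 150333336). Model and IsoL ears stood above all Blank ears, by 1.23 ± 0.06 and 1.28 ± 0.06 on the log2 scale, and overlapped each other (adjusted p = 0.461). Its copy Eno1b gave 1.31 ± 0.07 and 1.43 ± 0.07, and Gm4735 gave 1.16 ± 0.05 and 1.25 ± 0.05. Pgam1, the phosphoglycerate mutase of most tissues, averaged 48.5 ± 4.04 in IsoL, 51.2 ± 1.84 in Model and 24.9 ± 1.66 in Blank ears. It was 2.05-fold higher in Model than in Blank and 1.95-fold higher in IsoL than in Blank. For Gapdh the changes were 0.93 ± 0.07 and 0.77 ± 0.07. For Gm13394 they were 0.76 ± 0.04 and 0.78 ± 0.04. IsoL against Model did not pass for Gapdh (adjusted p = 0.0533); by total counts the row was called lower at -0.21.

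Eno2, the enolase of neurons, was a low member with 1.93, 1.87, 1.89 and 1.996 scaled FPKM in IsoL ears, 4.55, 4.21, 5.04 and 4.37 in Model ears, and 1.77, 1.66, 1.52 and 1.84 in Blank ears. Every Model ear was above every other ear, and every IsoL ear was above every Blank ear. Eno2 was 2.67-fold higher in Model than in Blank (log2 1.42 ± 0.09, adjusted p = 2.5e-12) and 2.36-fold lower in IsoL than in Model (adjusted p = 6.6e-11). IsoL against Blank did not pass (adjusted p = 0.101). Minpp1, a phosphatase of inositol polyphosphates that can also act on bisphosphoglycerate, had its highest levels in IsoL, with 32.4, 31.8, 29.0 and 30.5 scaled FPKM in IsoL ears, 18.8, 20.0, 21.8 and 17.5 in Model ears, and 15.0, 14.5, 13.5 and 14.8 in Blank ears. The groups did not overlap. It rose by 0.44 ± 0.06 in Model against Blank, by 0.66 ± 0.06 in IsoL against Model and by 1.10 ± 0.06 in IsoL against Blank (adjusted p = 7.9e-13). Minpp1 overlaps another tested gene on the same strand, and 28.5% of its 50-base words occur in another gene, so its counts are less certain.

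The muscle forms of these steps went the other way. Eno3, muscle enolase (chromosome 11, 70548028 to 70553339), had 62.3, 84.8, 91.8 and 64.4 scaled FPKM in IsoL ears, 66.1, 59.3, 66.7 and 63.9 in Model ears, and 116, 115, 105 and 117 in Blank ears. Blank ears were above all others: Model ears fell by 0.83 ± 0.09 (adjusted p = 3.1e-08) and IsoL ears fell by 0.58 ± 0.09 against Blank. Pgam2, the muscle mutase, had 35.9, 44.3, 51.6 and 40.1 scaled FPKM in IsoL ears, 35.9, 32.5, 38.5 and 34.8 in Model ears, and 61.5, 61.6, 55.8 and 58.5 in Blank ears. It fell by 0.75 ± 0.09 in Model against Blank and by 0.47 ± 0.08 in IsoL against Blank, and Blank ears again stood above all others. Both were called higher in IsoL than in Model, Eno3 by 0.24 ± 0.09 (adjusted p = 0.0293) and Pgam2 by 0.28 ± 0.09 (adjusted p = 0.0112). The Eno3 call was lost without IsoL replicate 2 or 3 or Model replicate 2 or 4 (log2 change 0.14 to 0.25, adjusted p 0.0513 to 0.152), and the Pgam2 call without IsoL replicate 3 (log2 change 0.18, adjusted p 0.0592). All 16 skeletal muscle markers were lower in Model than in Blank and in IsoL than in Blank. Against Model, IsoL had 5 of them higher and 1 lower, and the part of muscle RNA in the changes of Eno3, Pgam2 and Pfkm was not tested.

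Bpgm makes the bisphosphoglycerate that tunes haemoglobin. It averaged 4.47 ± 0.435 in IsoL, 5.17 ± 0.288 in Model and 6.23 ± 0.379 in Blank ears and was lower in Model than in Blank by 0.27 and in IsoL than in Blank by 0.48 (adjusted p = 0.00502 and 1.7e-05). A further fall of 0.21 in IsoL against Model (adjusted p = 0.041) was lost without IsoL replicate 1 or 4 or Model replicate 1, 2 or 3 (log2 change -0.17 to -0.21, adjusted p 0.0643 to 0.125). In CPM, the sums of 5 erythrocyte markers were 87.1 to 119 in IsoL, 136 to 148 in Model and 60.8 to 72.5 in Blank, with Hba-a2 at 0 in Model. The part of red cell RNA in the Bpgm levels was not tested. Gapdhs, the form of sperm, was a low row with 37 to 106 counts per library, lower in Model than in Blank (adjusted p = 0.00263) and higher in IsoL than in Model (adjusted p = 0.0009). It overlaps other tested genes on the opposite strand, and the strand setting of the authors' counting is not stated. Gapdh, Aldoa, Tpi1, Pfkm, Pfkp, Pdha1, Adpgk, Pgm1, Acss2 and Mea1 also overlap tested genes on the opposite strand.

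Lactate dehydrogenase interconverts pyruvate and lactate, and its subunits moved in opposite directions. Ldha, the subunit of muscle and of tissues that make lactate (ENSMUSG00000063229, chromosome 7, 46490899 to 46505051), had 180.2, 165, 183 and 164 scaled FPKM in IsoL ears, 174, 179, 179 and 182 in Model ears, and 93.6, 99.5, 93.5 and 96.5 in Blank ears. Model and IsoL ears overlapped and were all above the Blank ears. The log2 change was 0.90 ± 0.05 in Model against Blank (adjusted p = 1.2e-13) and 0.86 ± 0.05 in IsoL against Blank. IsoL against Model did not pass, at -0.04 ± 0.05 (adjusted p = 0.48). Ldhb, the subunit of heart and of tissues that use lactate (chromosome 6, 142435975 to 142453683), had 26.3, 26.5, 31.6 and 23.8 scaled FPKM in IsoL ears, 28.0, 24.8, 23.1 and 22.9 in Model ears, and 42.2, 45.1, 42.3 and 43.1 in Blank ears. Blank ears were highest throughout: Model ears fell by 0.81 ± 0.07 (adjusted p = 2.6e-09) and IsoL ears fell by 0.68 ± 0.07, and IsoL and Model overlapped (adjusted p = 0.174).

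**Figure D2:**
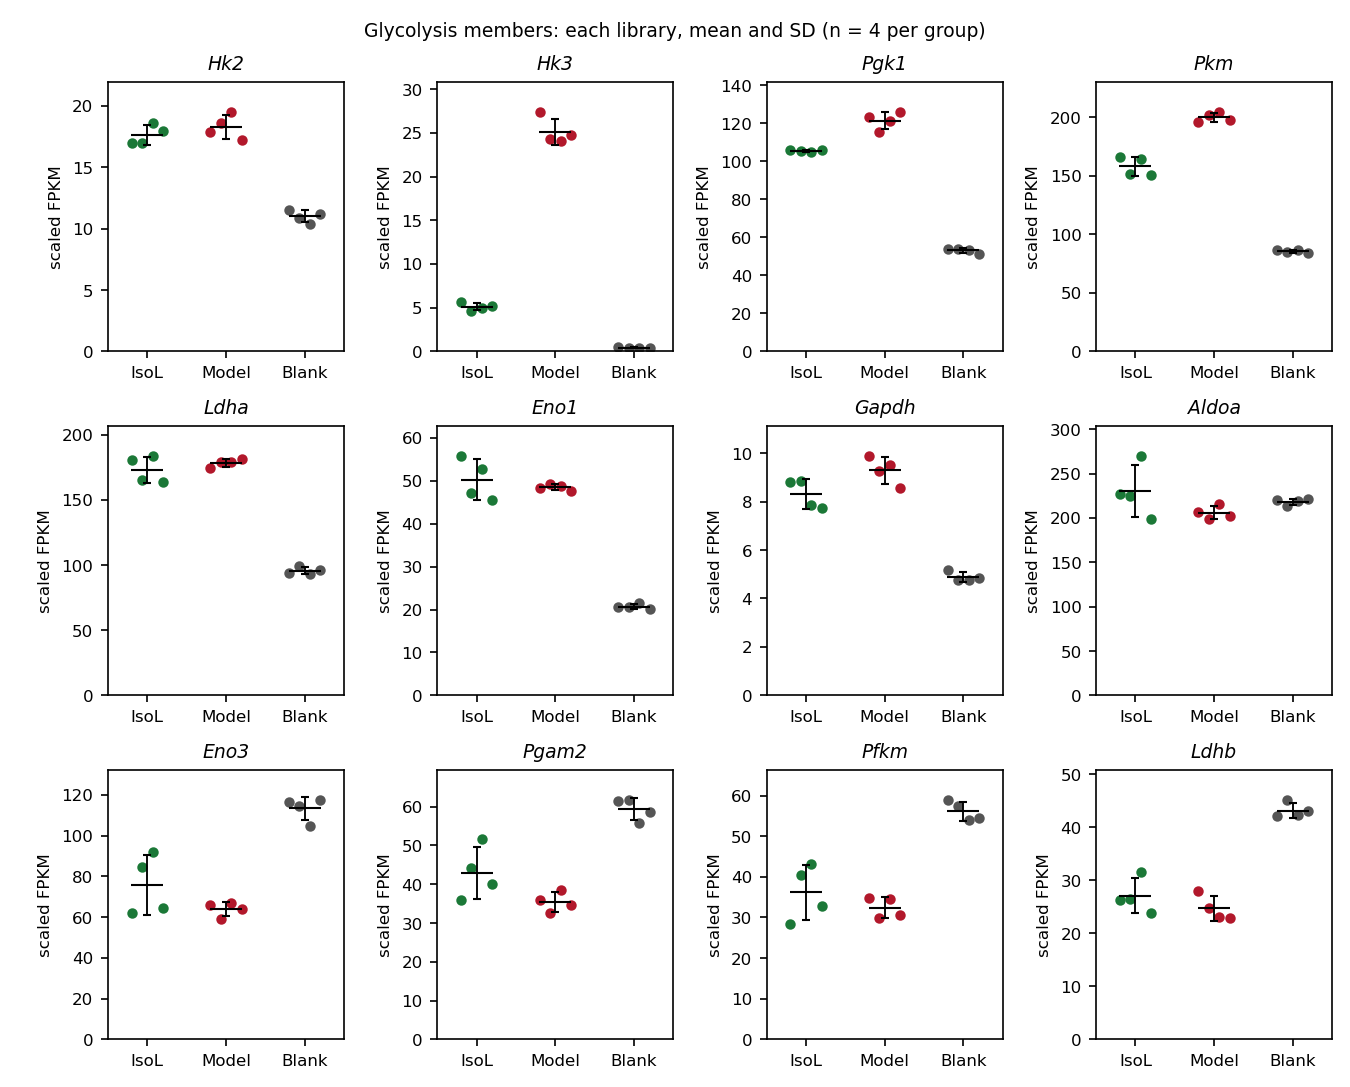
Scaled FPKM (y axis, linear from 0) of 12 glycolysis members in each of the 4 IsoL, 4 Model and 4 Blank libraries (points), with group means and SD (bars). Hk2, Pgk1, Pkm, Ldha, Eno1 and Gapdh are lowest in Blank, Eno3, Pgam2, Pfkm and Ldhb are highest in Blank, and Aldoa overlaps in all groups, between 199 and 269.

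To set the uncertain split between copies aside, the counts of all rows of an enzyme were summed and tested again in a fit chosen after the data were seen. Such sums hold only reads that were counted at some row, and how reads matching several copies were handled is not stated. In TMM-scaled CPM, glyceraldehyde-3-phosphate dehydrogenase averaged 313 ± 15.3 in IsoL, 309.7 ± 7.11 in Model and 189 ± 3.68 in Blank. Model exceeded Blank by 0.72 ± 0.04 on the log2 scale (adjusted p = 2.7e-12) and IsoL exceeded it by 0.73 ± 0.04. IsoL against Model was 0.01 ± 0.04 and did not pass (adjusted p = 0.819). This gene product is commonly taken as constant between samples, and here it differed between treated and untreated ears.

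Pyruvate kinase had a summed CPM of 798 ± 41.5 in IsoL, 1009 ± 20.0 in Model and 432 ± 6.35 in Blank. In Model against Blank the sums of hexokinase (1.12 ± 0.05), phosphoglycerate kinase (1.19 ± 0.04), lactate dehydrogenase (0.70 ± 0.05), enolase, triose-phosphate isomerase (0.51 ± 0.05), phosphoglycerate mutase (0.40 ± 0.05) and glucose-6-phosphate isomerase (0.32 ± 0.06) were higher too. Phosphofructokinase fell by 0.24 ± 0.05 (adjusted p = 0.00029), and aldolase did not pass (-0.09 ± 0.06, adjusted p = 0.196). The enolase sum, which holds both the muscle form and the common one, changed by 0.52 ± 0.05, against 1.23 ± 0.06 for Eno1 alone.

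In IsoL against Model, hexokinase fell by 0.43 ± 0.05, pyruvate kinase by 0.34 ± 0.05, phosphoglycerate kinase by 0.20 ± 0.04 and triose-phosphate isomerase by 0.16 ± 0.05, while aldolase rose by 0.16 ± 0.06 (adjusted p = 0.0383). The sums of enolase, lactate dehydrogenase, phosphoglycerate mutase, phosphofructokinase and glucose-6-phosphate isomerase did not pass in IsoL against Model (adjusted p = 0.221, 0.663, 0.866, 0.561 and 0.51 in that order).

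The make-up of each enzyme, as a share of the summed scaled FPKM of its isozymes, describes the same counts. Of hexokinase, Hk3 made up 15.6% ± 0.952 in IsoL, 47.5% ± 1.97 in Model and 2.09% ± 0.216 in Blank (SD, n = 4 each). The enolase share of Eno1 with its copies Eno1b and Gm4735 was 67.1% ± 4.72 in IsoL, 68.5% ± 1.52 in Model and 35.7% ± 1.22 in Blank. By this measure the muscle form Eno3 had the larger share in Blank ears and the common form in the other groups. Of enolase counts not divided by length, Eno3 held 18.0% to 52.5% over the libraries, so the size of its share depends on the exon lengths. Of phosphoglycerate mutase, Pgam1 was 53.2% ± 5.30 in IsoL, 59.1% ± 2.56 in Model and 29.6% ± 2.002 in Blank. Of lactate dehydrogenase, Ldha was 86.5% ± 0.979 in IsoL, 87.8% ± 1.20 in Model and 68.9% ± 0.149 in Blank, a share that ran from 85.3% to 87.3% over the IsoL ears, 86.1% to 88.8% over the Model ears and 68.8% to 69.1% over the Blank ears. Of phosphofructokinase, Pfkm was 68.8% ± 4.07 in IsoL, 65.7% ± 2.55 in Model and 80.6% ± 0.588 in Blank. The white blood cell marker sums given above had the group order of the Hk3 share. The muscle marker sums were highest in Blank, as were the shares of Eno3 and Pfkm. The part of these cells in the shares was not tested.

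**Figure D3:**
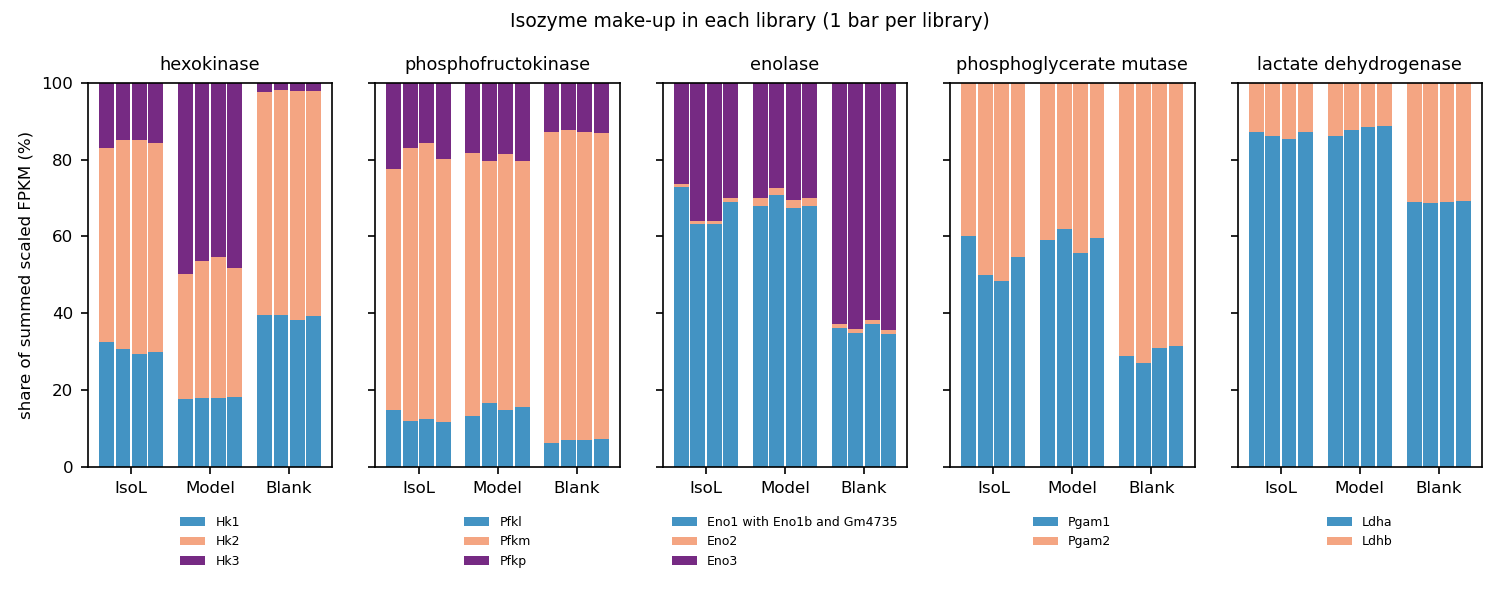
Share of each isozyme (y axis, percent of the summed scaled FPKM of the enzyme) for hexokinase, phosphofructokinase, enolase, phosphoglycerate mutase and lactate dehydrogenase, 1 stacked bar for each of the 4 IsoL, 4 Model and 4 Blank libraries. Hk3 takes 15.6% of hexokinase in IsoL, 47.5% in Model and 2.09% in Blank on average, and Eno3 takes 32.0%, 29.4% and 63.3% of enolase.

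Many glycolysis genes are known targets of the hypoxia-inducible factors, whose binding sites hold the letters ACGTG or GCGTG. Promoter windows from RefSeq (GRCm38.p6), 300 bases each from 250 before to 50 after a start, were found for 42 of the 47 tested members with a role, and both strands were searched. ACGTG was in at least 1 window of 10 of 17 glycolysis and lactate members that were higher in Model than in Blank (58.8%) and of 3 of 7 that were lower (42.9%). It was in 21 of all 42, in 28.3% of the 10791 tested genes with a window and in 19.6% of all 32851 windows. GCGTG was in 9 of the 17, in 4 of the 7, in 53.1% of the tested genes and in 32.4% of all windows. These are letters in a window, not bound sites. The windows of 4 genes that were higher in Model and of 2 muscle genes that were lower are shown, with ACGTG or the other motif, on either strand, in capitals, each 5′ to 3′ on the strand of the gene; where a gene has several windows, the one listed first is given. In the order of the lines that follow they lie at chrX:106186850-106187149 (plus strand), chr7:46845554-46845853 (plus), chr6:82774405-82774704 (minus), chr4:150236458-150236757 (plus), chr11:5803747-5804046 (minus) and chr11:70656926-70657225 (plus).
Pgk1: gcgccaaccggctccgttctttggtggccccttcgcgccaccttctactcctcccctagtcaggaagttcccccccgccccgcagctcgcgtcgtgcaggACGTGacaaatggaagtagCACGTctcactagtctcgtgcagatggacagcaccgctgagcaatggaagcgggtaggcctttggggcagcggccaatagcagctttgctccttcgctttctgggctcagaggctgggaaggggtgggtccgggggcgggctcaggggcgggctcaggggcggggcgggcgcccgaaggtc
Ldha: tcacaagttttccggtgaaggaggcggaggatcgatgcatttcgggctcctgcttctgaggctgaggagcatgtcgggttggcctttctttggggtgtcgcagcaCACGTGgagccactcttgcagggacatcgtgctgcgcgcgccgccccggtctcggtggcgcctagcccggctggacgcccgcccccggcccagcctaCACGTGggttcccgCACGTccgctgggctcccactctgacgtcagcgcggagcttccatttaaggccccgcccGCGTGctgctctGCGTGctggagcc
Hk2: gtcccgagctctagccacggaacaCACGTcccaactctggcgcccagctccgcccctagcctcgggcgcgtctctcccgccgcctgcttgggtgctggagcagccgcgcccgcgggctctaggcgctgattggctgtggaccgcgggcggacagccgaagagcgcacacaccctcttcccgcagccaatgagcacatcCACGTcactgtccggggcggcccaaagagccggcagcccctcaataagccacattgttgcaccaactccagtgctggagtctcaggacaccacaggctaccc
Eno1: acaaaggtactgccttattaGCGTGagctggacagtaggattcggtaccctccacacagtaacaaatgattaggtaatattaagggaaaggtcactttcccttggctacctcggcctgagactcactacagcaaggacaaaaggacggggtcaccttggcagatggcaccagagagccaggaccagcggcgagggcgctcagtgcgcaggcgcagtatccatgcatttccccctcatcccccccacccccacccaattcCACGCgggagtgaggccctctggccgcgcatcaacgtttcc
Pgam2: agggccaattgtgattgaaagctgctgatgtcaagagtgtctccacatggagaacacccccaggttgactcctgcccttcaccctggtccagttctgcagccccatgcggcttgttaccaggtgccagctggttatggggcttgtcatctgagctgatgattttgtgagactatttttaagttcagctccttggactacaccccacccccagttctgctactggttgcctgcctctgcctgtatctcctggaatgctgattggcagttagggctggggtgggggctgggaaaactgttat
Eno3: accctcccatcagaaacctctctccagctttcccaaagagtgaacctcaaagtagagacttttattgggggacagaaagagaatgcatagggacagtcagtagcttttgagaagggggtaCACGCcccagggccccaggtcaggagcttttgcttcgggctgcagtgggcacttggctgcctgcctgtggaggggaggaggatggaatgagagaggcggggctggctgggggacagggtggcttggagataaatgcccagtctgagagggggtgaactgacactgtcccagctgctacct
The Ldha window holds CACGTG at 2 places, which reads the same on both strands and counts once for each. Pgk1 and Hk2 hold ACGTG at 2 places each, the Eno1 window holds GCGTG at 2 places and no ACGTG, the Eno3 window holds 1 GCGTG, and the Pgam2 window holds none of these letters. The windows shown do not stand for all members. Pfkm, a muscle gene that was lower in Model, has 4 windows, and the most ACGTG in any 1 of them was 3, both strands counted. Gpi1, Tpi1 and Eno2, which were higher, have neither motif.

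The genes that are particular to gluconeogenesis were all low in the ear. Of 5 tested, 3 were higher and 1 lower in Model than in Blank, 2 were higher and 1 lower in IsoL than in Model, and 2 were higher and none lower in IsoL than in Blank. All tested genes gave shares of 35.3% and 34.9%, 24.1% and 25.2%, and 36.5% and 34.0% in that order. Fbp2, the fructose bisphosphatase of muscle (chromosome 13, 62984691 to 63006236), had 8.29, 8.67, 10.1 and 6.78 scaled FPKM in IsoL ears, 4.09, 2.78, 3.16 and 2.63 in Model ears, and 1.08, 1.23, 1.47 and 1.61 in Blank ears. The groups did not overlap and IsoL was highest. Its log2 change was 1.22 ± 0.19 in Model against Blank, 1.42 ± 0.15 in IsoL against Model (adjusted p = 4.7e-08) and 2.65 ± 0.17 in IsoL against Blank, so Fbp2 differed from Eno3, Pgam2 and Pfkm, the other muscle forms, whose levels were highest in Blank. Fbp1, the liver form, was near the filter with 1.36 ± 0.249 in IsoL, 1.91 ± 0.225 in Model and 1.09 ± 0.190 in Blank ears. It rose by 0.82 ± 0.20 in Model against Blank (adjusted p = 0.00098). Its call in IsoL against Model (lower by 0.49, adjusted p = 0.039) was lost without IsoL replicate 1, 2 or 4 or Model replicate 1, 2 or 3 (log2 change -0.41 to -0.50, adjusted p 0.0621 to 0.106).

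Pck2, the mitochondrial carboxykinase, had 3.90, 3.30, 3.97 and 3.49 scaled FPKM in IsoL ears, 2.47, 2.64, 2.48 and 2.85 in Model ears, and 1.66, 1.68, 1.52 and 1.595 in Blank ears. Each group was apart from the others, in the order IsoL, Model, Blank from the highest. The changes were 0.69 ± 0.08 in Model against Blank, 0.49 ± 0.08 in IsoL against Model and 1.18 ± 0.08 in IsoL against Blank (adjusted p = 1.3e-11). Pck1, the cytosolic form of liver, kidney and fat, had 4.87, 5.08, 5.65 and 5.74 scaled FPKM in IsoL ears, 4.75, 4.26, 4.91 and 5.88 in Model ears, and 5.62, 5.51, 5.57 and 4.83 in Blank ears, and all groups overlapped. No comparison passed for it (adjusted p = 0.249 in Model against Blank, 0.355 in IsoL against Model and 0.909 in IsoL against Blank), but by total counts Model was called lower than Blank at -0.26. In CPM, the 8 adipocyte markers summed to 358 to 394 in IsoL, 335 to 380.5 in Model and 335 to 372 in Blank, with overlapping ranges, but gene by gene 6 of the 8 were lower and 2 higher in Model than in Blank (median log2 -0.61). G6pc3, the glucose-6-phosphatase of most tissues, had 5.34, 4.78, 6.32 and 4.14 scaled FPKM in IsoL ears, 4.18, 5.08, 4.32 and 5.17 in Model ears, and 6.39, 6.21, 5.86 and 5.18 in Blank ears. It was lower in Model than in Blank by 0.33 (adjusted p = 0.0162), a call lost without Model replicate 1 or 3 or Blank replicate 1 (log2 change -0.28 to -0.29, adjusted p 0.0505 to 0.0555).

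Pyruvate dehydrogenase feeds pyruvate into the citric acid cycle, and its 3 tested subunits were lower in Model than in Blank. Of 5 tested genes of this complex and of acetate use, 1 was higher and 4 lower in Model than in Blank, 1 was higher and 1 lower in IsoL than in Model, and 3 were lower in IsoL than in Blank. Higher and lower shares of all tested genes were 35.3% and 34.9%, 24.1% and 25.2%, and 36.5% and 34.0% in that order. Pdha1, the catalytic alpha subunit, had 50.3, 54.9, 58.1 and 55.9 scaled FPKM in IsoL ears, 53.0, 55.3, 54.8 and 55.3 in Model ears, and 60.7, 59.9, 58.1 and 58.5 in Blank ears. Model and IsoL ears averaged below Blank by 0.12 and 0.11 on the log2 scale (adjusted p = 0.0277 and 0.0329). These calls were lost without Model replicate 1 or Blank replicate 1 or 2 (log2 change -0.10 to -0.11, adjusted p 0.0606 to 0.078) in Model against Blank and without IsoL replicate 1 or Blank replicate 1 or 2 (log2 change -0.08 to -0.11, adjusted p 0.0698 to 0.124) in IsoL against Blank. Pdhb, the beta subunit, fell by 0.28 ± 0.05 in Model against Blank and by 0.25 ± 0.05 in IsoL against Blank. Dlat, the acetyltransferase core, fell by 0.15 ± 0.05 in Model against Blank.

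Acss1, the mitochondrial acetyl-CoA synthetase, had 2.11, 2.097, 2.21 and 1.84 scaled FPKM in IsoL ears, 3.45, 2.99, 3.75 and 3.19 in Model ears, and 1.94, 2.20, 2.0 and 1.82 in Blank ears. Model ears were above all others, by 0.75 ± 0.10 over Blank, and IsoL ears fell by 0.69 ± 0.10 against Model (adjusted p = 4.8e-06), into the range of the Blank ears. Acss2, the synthetase of cytosol and nucleus that serves lipid synthesis, had 5.72, 5.65, 5.49 and 5.17 scaled FPKM in IsoL ears, 3.87, 4.32, 4.34 and 4.07 in Model ears, and 6.69, 6.34, 7.34 and 6.28 in Blank ears. Here Model ears were lowest: they fell by 0.68 ± 0.06 against Blank, and IsoL ears rose by 0.41 ± 0.06 against Model (adjusted p = 8e-06). IsoL remained lower than Blank by 0.27 (adjusted p = 0.00028). The 8 sebaceous gland markers, genes of a gland that makes lipid, summed to 3680.2 to 4509 in IsoL, 3278 to 3715 in Model and 7262 to 7634 in Blank (CPM). Abundant members carry that sum: 3 of the 8, Scd1 among them (log2 -1.25), were lower in Model than in Blank, 1 was higher and 4 did not pass (median log2 -0.08). Their part in the Acss2 levels was not tested.

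The alcohol and aldehyde enzymes divided by gene. Of 9 tested, 4 were higher and 4 lower in Model than in Blank, 6 were higher and 2 lower in IsoL than in Model, and 5 were higher and 2 lower in IsoL than in Blank. For all tested genes the shares were 35.3% and 34.9%, 24.1% and 25.2%, and 36.5% and 34.0% in that order. Aldh1a3, which makes retinoic acid from retinal (ENSMUSG00000015134, chromosome 7, 66040638 to 66077265), had 8.73, 10.6, 5.62 and 8.63 scaled FPKM in IsoL ears, 6.96, 6.83, 6.40 and 6.84 in Model ears, and 0.296, 0.330, 0.393 and 0.362 in Blank ears. Every treated ear was far above every Blank ear: the change was 19.5-fold in Model against Blank (log2 4.29 ± 0.18, adjusted p = 2.3e-15) and 24.2-fold in IsoL against Blank (log2 4.60 ± 0.18, adjusted p = 7.2e-16). Blank ears lay below 1 scaled FPKM, with 25 to 31 counts each. Aldh1a3 thus passed the filter only through the treated ears, and its separation from Blank is not independent of it. IsoL and Model overlapped. The call between them (0.31 ± 0.12, adjusted p = 0.0319) was lost without IsoL replicate 1, 2 or 4 or Model replicate 1, 2, 3 or 4 (log2 change 0.18 to 0.33, adjusted p 0.0519 to 0.169).

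Adh7, an alcohol dehydrogenase of epithelia that oxidises retinol, had 10.4, 11.2, 9.04 and 11.8 scaled FPKM in IsoL ears, 6.14, 5.94, 5.74 and 6.18 in Model ears, and 11.2, 9.58, 12.04 and 10.3 in Blank ears. Model ears lay below all others and IsoL ears overlapped Blank ears. The change was -0.85 ± 0.08 in Model against Blank and 0.82 ± 0.08 in IsoL against Model (adjusted p = 2.4e-08). Adh1, the class of liver, which also acts on retinol, had 12.03, 11.4, 9.74 and 11.3 scaled FPKM in IsoL ears, 6.599, 5.40, 5.85 and 5.54 in Model ears, and 14.7, 16.4, 13.3 and 15.3 in Blank ears. The groups did not overlap, with Blank highest and Model lowest; Model ears fell by 1.35 ± 0.09 against Blank, IsoL ears rose by 0.93 ± 0.09 against Model and fell by 0.42 ± 0.08 against Blank. Adh5, which clears formaldehyde bound to glutathione, averaged 9.04 ± 0.238 in IsoL, 9.73 ± 0.524 in Model and 9.14 ± 0.625 in Blank ears and passed in no comparison (adjusted p from 0.144 to 0.83).

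Aldh3a1, an enzyme of cornea and other exposed epithelia that oxidises aldehydes from lipid peroxides, had 10.5, 9.69, 12.9 and 11.8 scaled FPKM in IsoL ears, 5.81, 7.31, 7.07 and 5.07 in Model ears, and 25.7, 23.9, 28.2 and 25.0 in Blank ears. It was 4.05-fold lower in Model than in Blank (adjusted p = 5e-14) and 1.76-fold higher in IsoL than in Model, with no overlap between groups. Aldh3b2, a fatty aldehyde dehydrogenase, had 54.0, 49.6, 48.8 and 44.4 scaled FPKM in IsoL ears, 22.5, 24.9, 22.7 and 22.8 in Model ears, and 30.6, 29.8, 28.7 and 32.8 in Blank ears. IsoL ears were highest and Model ears lowest, without overlap: the change was 1.08 ± 0.06 in IsoL against Model (adjusted p = 1.4e-12) and 0.69 ± 0.06 in IsoL against Blank. Aldh3b3, its neighbour on chromosome 19, had 7.96, 7.61, 7.45 and 6.96 scaled FPKM in IsoL ears, 3.86, 3.84, 4.19 and 3.45 in Model ears, and 2.84, 2.89, 3.52 and 3.08 in Blank ears, so IsoL ears were again above all others, by 0.97 ± 0.08 over Model (adjusted p = 1e-09). Of the 50-base words of Aldh3b2 and Aldh3b3, 24.2% and 12.8% occur in another gene, each most in the other. The call of Aldh3b3 in Model against Blank (0.32 ± 0.09) was lost by total counts (0.18).

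Aldh3b1, the related enzyme of lung and kidney, had a different order, with 5.56, 4.11, 4.64 and 3.72 scaled FPKM in IsoL ears, 8.10, 7.83, 8.85 and 9.43 in Model ears, and 1.82, 1.93, 1.43 and 1.49 in Blank ears. Model ears were 5.11-fold above Blank ears (adjusted p = 4.2e-13), and IsoL ears fell by 0.92 ± 0.12 against Model and lay between the other groups without overlap. Akr1a1, an aldehyde reductase and the most expressed gene of this role, had 117, 103, 113 and 99.9 scaled FPKM in IsoL ears, 121, 119.5, 124 and 119.5 in Model ears, and 76.1, 78.2, 75.3 and 77.6 in Blank ears. It rose by 0.66 ± 0.05 in Model against Blank and by 0.50 ± 0.05 in IsoL against Blank. The fall of 0.16 ± 0.05 in IsoL against Model (adjusted p = 0.0101) was not called with upper-quartile scaling (-0.11). The 8 keratinocyte markers were all higher in IsoL than in Model, where 24.1% of all tested genes were, and their part in the levels of Adh7, Aldh3a1, Aldh3b2 and Aldh3b3 was not tested.

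**Figure D4:**
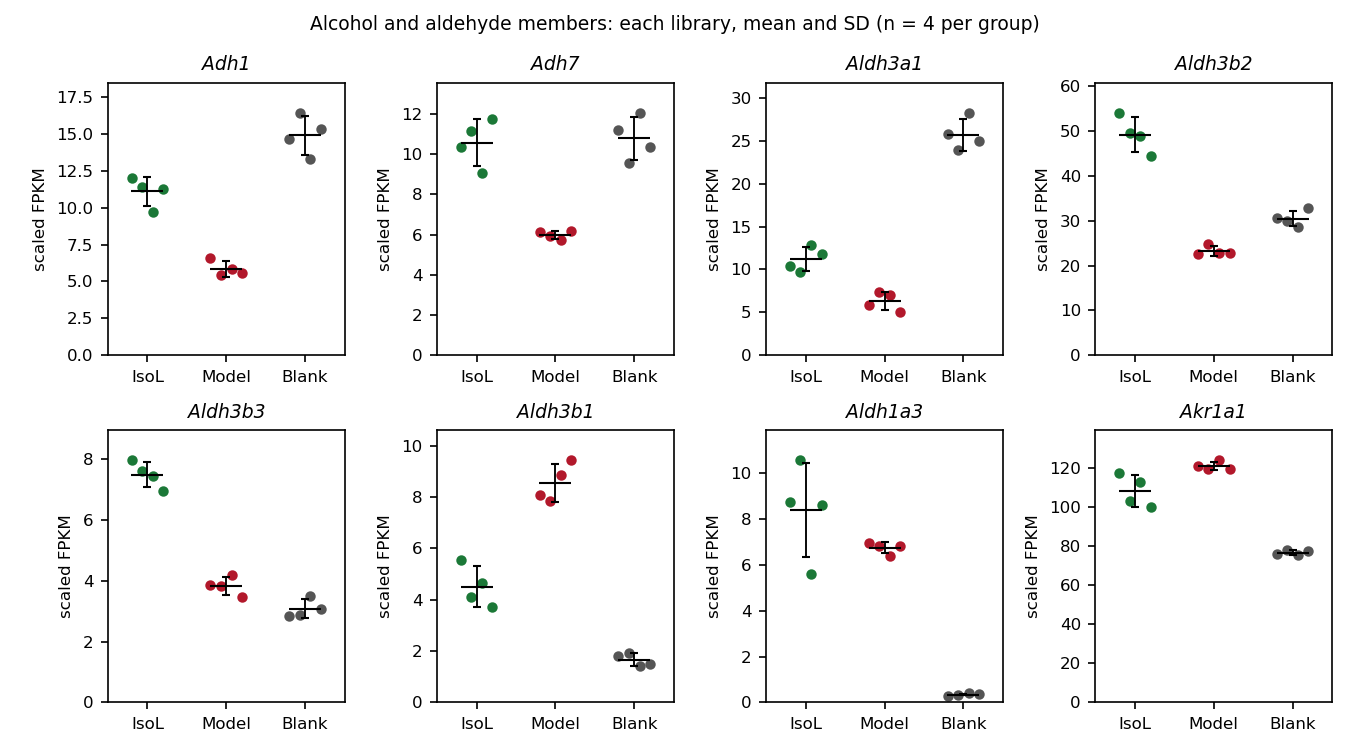
Scaled FPKM (y axis, linear from 0) of 8 alcohol and aldehyde members in each of the 4 IsoL, 4 Model and 4 Blank libraries (points), with group means and SD (bars). Adh1, Adh7, Aldh3a1 and Aldh3b2 are lowest in Model, Aldh3b2 and Aldh3b3 are highest in IsoL, and Aldh1a3 is at 0.393 or below in every Blank library.

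The other 14 tested rows carry no enzyme role by name. The table annotates Zfp738, Peli2 and Mea1 with this pathway although Zfp738 is named as a zinc finger gene and Peli2 as a ubiquitin ligase of the Pellino family. Peli2 fell by 0.74 ± 0.06 in Model against Blank and by 0.89 ± 0.06 in IsoL against Blank. Zfp738 fell by 0.30 ± 0.07 in Model against Blank. Mea1 rose by 0.21 ± 0.08 there, a call lost without Model replicate 4 (log2 change 0.16, adjusted p 0.0869). Among the copies, Gm6560 of pyruvate kinase rose by 1.24 ± 0.17 in Model against Blank and Gm5855 of enolase by 0.95 ± 0.18, while Ldhb-ps fell by 0.93 ± 0.19, the direction of the genes they resemble. The others had 3 to 150 counts per library, Gm13394 and Gm4735 apart.

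Glucose must enter the cell and lactate must leave it, and the carriers for both were taken from a list of genes outside the pathway rows. Of 13 tested genes for carriers and their chaperone, 8 were higher and 4 lower in Model than in Blank, 1 was higher and 6 lower in IsoL than in Model, and 7 were higher and 4 lower in IsoL than in Blank. Over all tested genes the shares were 35.3% and 34.9%, 24.1% and 25.2%, and 36.5% and 34.0% in that order. Slc2a3, the high-affinity glucose carrier of neurons and white blood cells, had 1.61, 2.07, 1.30 and 1.47 scaled FPKM in IsoL ears, 9.38, 9.59, 9.98 and 10.3 in Model ears, and 0.461, 0.382, 0.501 and 0.533 in Blank ears. It rose by 4.39 ± 0.12 in Model against Blank (adjusted p = 3.9e-19) and fell by 2.61 ± 0.10 in IsoL against Model, and the groups were apart. Slc2a3, like Slc2a6 below, lay under 1 scaled FPKM in all Blank ears, so both passed the filter through treated ears. Slc16a3, a lactate exporter of glycolytic cells, rose by 3.70 ± 0.10 in Model against Blank and fell by 2.03 ± 0.09 in IsoL against Model. Slc2a6, a sugar carrier of macrophages, gave 3.06 ± 0.17 in Model against Blank. As for Hk3, neutrophil and macrophage marker sums shared this order of groups and their part was not tested. Slc2a1, the main glucose carrier of keratinocytes, averaged 25.4 ± 3.03 in IsoL, 31.3 ± 1.07 in Model and 21.9 ± 0.494 in Blank ears and rose by 0.51 ± 0.06 in Model against Blank and fell by 0.30 ± 0.06 in IsoL against Model. Slc2a12, a glucose carrier of muscle and fat, fell by 1.95 ± 0.09 in Model against Blank and by 1.81 ± 0.09 in IsoL against Blank.

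Other genes set the pace of glycolysis. Of 13 tested regulators, 3 were higher and 7 lower in Model than in Blank, 1 higher and 3 lower in IsoL than in Model, and 2 higher and 8 lower in IsoL than in Blank. In that order, the shares of all tested genes were 35.3% and 34.9%, 24.1% and 25.2%, and 36.5% and 34.0%. Pfkfb3 makes the fructose bisphosphate that most strongly activates phosphofructokinase. It had 5.92, 5.76, 5.56 and 5.82 scaled FPKM in IsoL ears, 12.5, 11.1, 11.9 and 12.3 in Model ears, and 5.52, 5.13, 5.97 and 5.54 in Blank ears, so Model ears stood alone at 1.11 ± 0.06 over Blank, and IsoL ears fell by 1.05 ± 0.06 against Model. Pfkfb4, an isozyme of the same reaction, rose in both comparisons, with 1.21 ± 0.06 in Model against Blank and 0.51 ± 0.06 in IsoL against Model. Pfkfb2 fell by 1.15 ± 0.08 in Model against Blank. Pdk1, a kinase that shuts pyruvate dehydrogenase, had 3.46, 3.59, 3.63 and 3.45 scaled FPKM in IsoL ears, 4.08, 4.03, 4.08 and 3.60 in Model ears, and 8.07, 7.96, 7.84 and 8.15 in Blank ears and fell by 1.02 ± 0.06 in Model against Blank and by 1.18 ± 0.06 in IsoL against Blank. Pdk4, another of these kinases, rose by 0.88 ± 0.07 in Model against Blank and fell by 0.47 ± 0.07 in IsoL against Model.

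**Figure D5:**
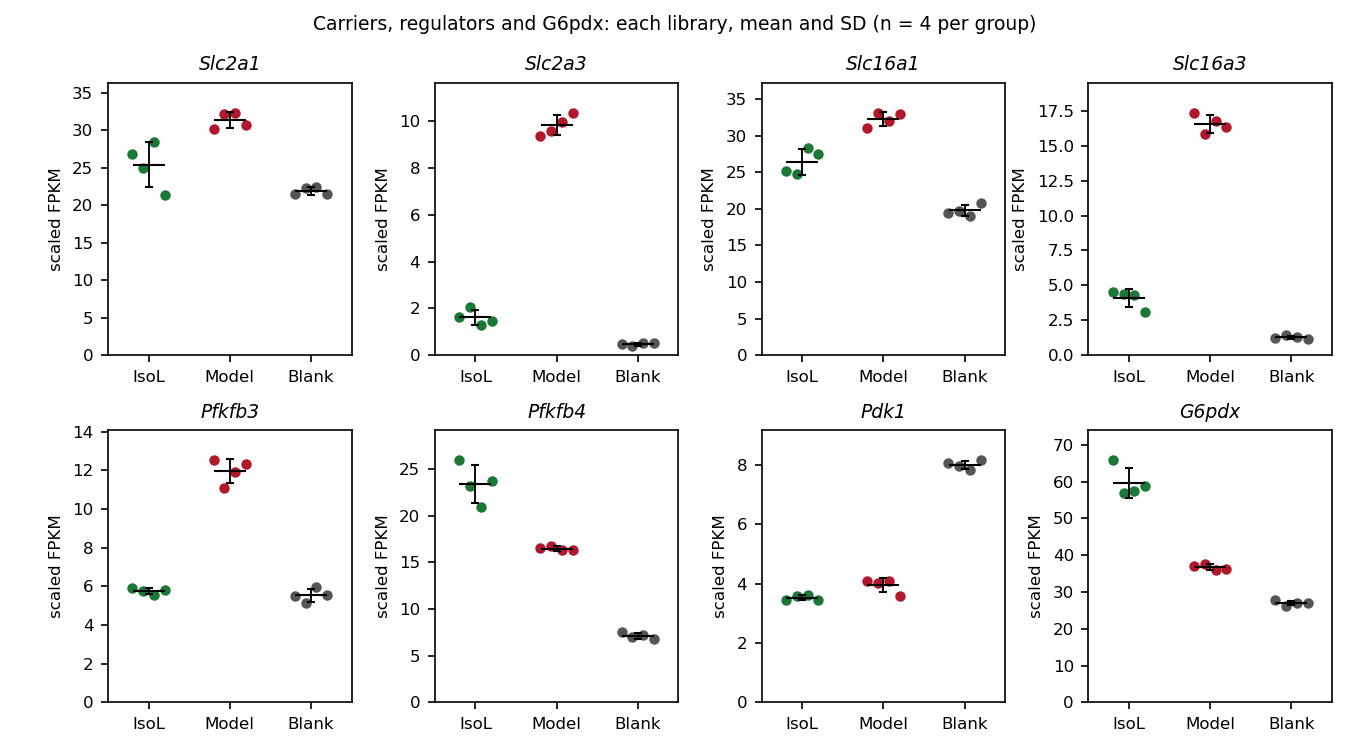
Scaled FPKM (y axis, linear from 0) of the carriers Slc2a1, Slc2a3, Slc16a1 and Slc16a3, the regulators Pfkfb3, Pfkfb4 and Pdk1, and G6pdx in each of the 4 IsoL, 4 Model and 4 Blank libraries (points), with group means and SD (bars). Slc2a3 averages 1.61 in IsoL, 9.82 in Model and 0.469 in Blank, Pdk1 is highest in Blank, and Pfkfb4 and G6pdx are highest in IsoL.

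The pentose phosphate pathway leaves glycolysis at glucose-6-phosphate and makes NADPH and ribose. Of its 8 tested genes, 6 were higher and 1 lower in Model than in Blank, 4 higher and 2 lower in IsoL than in Model, and 7 higher and none lower in IsoL than in Blank. The shares of all tested genes, for this list and the glycogen genes below, were 35.3% higher and 34.9% lower in Model against Blank. They were 24.1% and 25.2% in IsoL against Model, and 36.5% and 34.0% in IsoL against Blank. G6pdx, the first enzyme of the pentose phosphate pathway, had 65.7, 56.8, 57.3 and 58.7 scaled FPKM in IsoL ears, 37.1, 37.6, 36.0 and 36.3 in Model ears, and 27.9, 26.3, 27.0 and 26.9 in Blank ears. The groups did not overlap and IsoL was highest, at 0.70 ± 0.05 over Model (adjusted p = 5.9e-11) and 1.14 ± 0.05 over Blank. Pgd, the next NADPH-making enzyme, rose by 0.84 ± 0.05 in Model against Blank and by 0.24 ± 0.05 in IsoL against Model. H6pd rose by 1.38 ± 0.08 in Model against Blank but fell by 0.55 ± 0.08 in IsoL against Model. Of 14 tested glycogen genes, 1 was higher and 7 lower in Model than in Blank, 6 were lower and none higher in IsoL than in Model, and 12 were lower and none higher in IsoL than in Blank. The list holds muscle forms such as Pygm, Phkg1 and Phka1, and all 16 skeletal muscle markers were lower in Model and in IsoL than in Blank; their part in the glycogen counts was not tested. Pygl, the glycogen phosphorylase of liver and white blood cells, was the 1 that rose, by 1.49 ± 0.07 in Model against Blank, and it fell by 1.55 ± 0.07 in IsoL against Model. The 8 tested neutrophil markers and the 10 of monocytes and macrophages did the same in both comparisons, and their part in the Pygl levels was not tested. Pygm, the muscle phosphorylase, fell by 0.88 ± 0.11 in Model against Blank.

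Of 20 tested genes of the hypoxia-inducible factors and their targets outside glycolysis, 14 were higher and 3 lower in Model than in Blank, 3 higher and 13 lower in IsoL than in Model, and 11 higher and 5 lower in IsoL than in Blank. For all tested genes the shares were 35.3% and 34.9%, 24.1% and 25.2%, and 36.5% and 34.0% in that order. Hif1a, the oxygen-regulated subunit, had 69.7, 86.9, 70.4 and 85.6 scaled FPKM in IsoL ears, 89.5, 94.8, 88.5 and 101 in Model ears, and 27.1, 28.7, 27.2 and 26.7 in Blank ears, with every treated ear above every Blank ear. It rose by 1.77 ± 0.07 in Model against Blank (adjusted p = 4.7e-16) and fell by 0.26 ± 0.07 in IsoL against Model. Transcript levels do not show the factor's protein, which is known to be set largely by its breakdown. Vegfa, a target that makes vessels grow, rose by 1.19 ± 0.05 in Model against Blank and fell by 0.78 ± 0.05 in IsoL against Model. P4ha1, a collagen prolyl hydroxylase, rose by 0.79 ± 0.07 and fell by 0.87 ± 0.07 in the same comparisons. Its relative P4ha2 fell in both, by 0.82 ± 0.07 and 0.25 ± 0.07. Hif1an fell by 0.57 ± 0.05 in Model against Blank and rose by 0.13 ± 0.05 in IsoL against Model. Egln3, a target that marks the factor for breakdown, rose in both, by 0.71 ± 0.06 and 0.53 ± 0.06.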

How the data were processed

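Poly-A RNA of 12 mouse ear libraries was sequenced. Reads were trimmed with fastp 0.22.0, aligned with HISAT2 2.1.0 and counted per gene with HTSeq 0.9.1, per the submitters' processing notes. The deposited table holds the authors' raw counts per gene and their FPKM, which divide those counts by exon length and mapped total. The genome build and the strand setting are not given in the sources used here, and no molecular identifiers were used over 15 PCR cycles, so precision rests on counting and library spread.

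A gene entered the test (15403 of 56691) if 4 or more libraries reached an FPKM of 1. The counts were scaled by TMM and fitted with edgeR 4.0.16 (quasi-likelihood, R 4.3.3) in 1 model of the 3 groups without covariates, with Benjamini-Hochberg adjustment over all genes tested and calls at 0.05. The pipeline was tested on simulated data. Samples were grouped by the labels.

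The members and all gene lists were chosen with earlier results of these data known. Values per library were planned for a panel of members, for the most expressed gene of each role and for the 3 called genes with the largest change in each role and comparison. Of lists outside the pathway, the 3 called genes with the largest change were eligible. Some further members, and Slc2a1, Slc16a1, P4ha2 and Hif1an outside the pathway, were named after their values were seen. Counts summed by enzyme were chosen after seeing the data. Alternatives were DESeq2 1.42.0, limma 3.58.1 on log2(FPKM + 0.1) and log2(FPKM + 1), total-count and upper-quartile scaling, no filter, 2 groups per fit, a 1.5-fold minimum, the replicate number as a block and leaving out each library. Promoter and transcript sequences were read with Python 3.11.15 from RefSeq and GENCODE M21, and figures drawn with matplotlib 3.10.9. Some withheld items are not reported here.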

Additional observations from a re-analysis of the deposited data

Results flagged for a closer look

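In 5 of the 183 sets of 4 libraries examined (61 tested members in 3 groups), 1 library stood far from the other 3, with a gap to its nearest neighbour that passed the limit of Dixon's test. Chance flags about 1 in 20 sets. Aldh3b2 was at 24.9 scaled FPKM in Model replicate 2, where the other Model ears had 22.5 to 22.8. Gpi1 was at 29.4 in the same library, where the others had 27.0 to 27.3. Mea1 was at 16.8 in Model replicate 4, above 14.8 to 14.9 in the other Model ears. Dlat was at 12.3 in IsoL replicate 1, below 13.8 to 14.1 in the other IsoL ears. Pck1 was at 4.83 in Blank replicate 4, below 5.51 to 5.62 in the other Blank ears.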

How the results depend on the processing

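With a 1.5-fold minimum the rows called lower in Model against Blank were 12, those in IsoL against Model 9 higher and 5 lower, and those lower in IsoL against Blank 4. In IsoL against Model, limma on log2(FPKM + 1) called 11 higher and upper-quartile scaling 8 lower. Leaving out 1 library gave 33 to 34 higher and 17 to 20 lower in Model against Blank, 12 to 16 higher and 10 to 13 lower in IsoL against Model, and 32 to 34 higher and 12 to 15 lower in IsoL against Blank. The replicate block gave 35 higher and 19 lower, 16 and 13, and 33 and 13 in that order of comparisons. Same-numbered libraries did not deviate together over all tested genes (correlations from -0.13 to 0.03). The labels state no pairing, and such correlations cannot exclude one.

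The scaling moved all genes together: the median log2 change in Model against Blank was -0.14 by total counts and -0.12 by upper quartile, and in IsoL against Blank -0.18 by total counts, against -0.01 and 0.02 with TMM. Of called genes, 50.3% were higher in Model against Blank with TMM, 39.0% by total counts and 40.5% by upper quartile. For IsoL against Model the shares were 49.0%, 39.6% and 56.6%, and for IsoL against Blank 51.8%, 36.1% and 45.8%. Members split 31 higher and 21 lower by total counts and 32 and 21 by upper quartile in Model against Blank, and 29 and 19 and 32 and 17 in IsoL against Blank.

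Changes of direction touched small changes, and their cause was not tested. Pfkp, called higher in Model against Blank, was at -0.028 and -0.026 with limma on log2(FPKM + 0.1) and log2(FPKM + 1), -0.028 by total counts and -0.0080 by upper quartile. In IsoL against Blank it was -0.069, -0.063 and -0.070 under the first 3 of these. The others were not called by TMM. In IsoL against Model, Eno1 was -0.0070, -0.0068 and -0.0021 under those 3 settings and -0.0014 to 0.097 without 1 library, Gpi1 was -0.11 to 0.0017 without 1 library, and Ldha was 0.0026 by upper quartile. Pdha1 was -0.0095 with DESeq2, -0.051 and -0.050 with limma, -0.0040 in a fit of 2 groups, -0.048 by total counts and -0.024 to 0.044 without 1 library. Pfkp was -0.0022 with DESeq2, -0.041 and -0.037 with limma, -0.042 by total counts and -0.0081 to 0.027 without 1 library. In IsoL against Blank, Aldoa was -0.125 with both limma fits, -0.115 by total counts and -0.011 to 0.14 without 1 library, and Pck1 was 0.0044 with no filter and -0.061 to 0.029 without 1 library. Depth limits the rows of few counts, Gm6967 and Tpi-rs11 among them.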
